A study of Arabidopsis thaliana with 24 samples.

Results

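The KRP genes of Arabidopsis thaliana encode the KIP-RELATED PROTEINS, a small family of inhibitors of cyclin-dependent kinases (CDKs). A KRP protein binds a complex of a CDK and a cyclin, above all CDKA;1 with a D-type cyclin, and holds its kinase activity down. This limits entry into DNA replication and mitosis, and moderate KRP levels are also known to favour endoreduplication, in which cells replicate DNA without dividing. KRP proteins are removed through ubiquitin ligases, among them complexes with the F-box protein FBL17 and the RING proteins RHF1A and RHF2A, so that a transcript level does not give the protein level.

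The family was taken as its 7 annotated members, KRP1 (AT2G23430), KRP2 (AT3G50630), KRP3 (AT5G48820), KRP4 (AT2G32710), KRP5 (AT3G24810), KRP6 (AT3G19150) and KRP7 (AT1G49620), chosen by name out of 33341 loci. All 7 had counts in all 12 mRNA libraries, between 36 and 891 per library, and all 7 passed the filter on low counts in every comparison. The libraries came from seedlings at 5 days after germination, grown on Murashige and Skoog medium with 1% sucrose under 16 h of light and 8 h of dark. There were 4 groups of 3 libraries, namely root tips of rh27-2, root tips of the Col-0 wild type (WT), shoot apices of rh27-2 and shoot apices of WT. The allele rh27-2 affects RH27 (AT5G65900), a DEAD-box RNA helicase that the study's title links to microRNA biogenesis and stem cells, and its lesion is not given in the sources used here. Whether plants were pooled, and whether replicates were separate cultures, is not stated, and a p-value here speaks only to the spread among these libraries, which may be technical. The other 12 of the 24 libraries of the series held small RNA and were not used here.

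The mRNA libraries held 15603992 to 20380109 counts on 21650 to 22788 detected loci. Levels below are CPM, counts scaled to a common library total, after TMM scaling over the 12 libraries, and fold changes are log2 ratios from edgeR, with standard errors (SE) from the fit. The spread between replicates was larger in shoot apices, with a biological coefficient of variation of 0.202, than in root tips, with 0.0735. In root tips RH27 itself had 12.6, 14.9 and 13.7 CPM in rh27-2, against 25.5, 24.5 and 21.8 CPM in WT, and its log2 fold change was -0.80 (SE 0.09, adjusted p 8.47e-06 by the edgeR quasi-likelihood F-test, Benjamini-Hochberg adjusted). In shoot apices RH27 had 25.8, 26.8 and 24.0 CPM in rh27-2, against 34.6, 26.8 and 30.8 CPM in WT, a difference that was not called (log2 fold change -0.33, edgeR adjusted p 0.0712), though it was under total-count scaling and without WT replicate 2. Of the shoot apex markers, the meristem gene STM averaged 64.6 CPM in rh27-2 and 12.8 CPM in WT shoot apices and at most 0.291 CPM in root tips, LHCB1.1, which encodes a chlorophyll-binding protein, averaged 184 CPM in rh27-2 and 1735 CPM in WT shoot apices, and WUS and CLV3 stayed under 1 CPM on average in every group. Of the root tip markers, PLT1 averaged 21.2 CPM in rh27-2 and 17.2 CPM in WT root tips, CASP1 155 CPM in rh27-2 and 328 CPM in WT root tips, and COBL9, a root hair gene, 54.0 CPM in rh27-2 and 125 CPM in WT root tips, while WOX5 averaged 7.24 CPM in rh27-2 root tips, 0.924 CPM in WT root tips, 0.780 CPM in rh27-2 shoot apices and 4.73 CPM in WT shoot apices and so did not mark WT root tips. Of the 4 root tip markers, all tested, 1 was called higher and 2 lower in rh27-2 root tips, beside 62.1% of all tested genes called. Of the 4 shoot apex markers only 2 were tested. Of these, 1 was called higher and 1 lower in rh27-2 shoot apices, beside 40.9% of all tested genes. The part of the markers in the KRP results was not tested. In bulk samples, fewer cells of a type and less RNA per cell cannot be told apart.

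In root tips every KRP gene was called between rh27-2 and WT in the reported fit. KRP2, KRP4, KRP5 and KRP7 fell clearly, and KRP6 rose. KRP1 and KRP3 fell in weak calls, lost under other scalings, under DESeq2, with a shared spread and without single libraries. The count was 1 of 7 members higher and 6 of 7 lower, beside 62.1% of the 19443 tested genes called in either direction, 31.3% higher and 30.9% lower. The median log2 fold change of the 7 members was -0.52, beside 0.012 over all genes tested.

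KRP7, known with KRP6 as a target of FBL17 in developing pollen, had 2.99, 3.31 and 3.14 CPM in rh27-2 root tips, against 5.81, 5.12 and 4.90 CPM in WT root tips. All rh27-2 libraries lay below all WT libraries, and the log2 fold change was the lowest of the family in this organ (-0.75, SE 0.16, adjusted p 0.00105 by the edgeR quasi-likelihood F-test, Benjamini-Hochberg adjusted). KRP2, which is known to restrain lateral root initiation, had 13.4, 18.0 and 16.4 CPM in rh27-2 root tips, against 23.7, 27.3 and 24.7 CPM in WT root tips. The groups did not overlap (log2 fold change -0.67, SE 0.11, edgeR adjusted p 1.21e-04).

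KRP5, a member known from root and hypocotyl growth, had the tightest replicates of the family in root tips. Its levels were 4.62, 4.50 and 4.27 CPM in rh27-2 root tips, against 6.93, 6.74 and 6.77 CPM in WT root tips. The groups lay well apart (log2 fold change -0.62, SE 0.13, edgeR adjusted p 0.00130). KRP4, which is known to tie the timing of DNA replication to cell size in the shoot meristem, had 15.1, 18.5 and 16.9 CPM in rh27-2 root tips, against 23.2, 21.5 and 23.6 CPM in WT root tips. Here too every rh27-2 library was below every WT library (log2 fold change -0.44, SE 0.09, edgeR adjusted p 9.38e-04).

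KRP1 and KRP3 fell with adjusted p nearer to the threshold. KRP1, the founding member of the plant family, had 6.40, 5.27 and 5.39 CPM in rh27-2 root tips, against 7.27, 6.68 and 7.86 CPM in WT root tips. The highest rh27-2 library was close under the lowest WT library (log2 fold change -0.36, SE 0.14, edgeR adjusted p 0.0372). KRP3 had 2.57, 3.0 and 2.60 CPM in rh27-2 root tips, against 3.37, 4.87 and 3.51 CPM in WT root tips, where WT replicate 2 was the highest (log2 fold change -0.52, SE 0.20, edgeR adjusted p 0.0353). The call of KRP1 was lost without WT replicate 1 or 3 or without rh27-2 replicate 2 or 3, at edgeR adjusted p 0.0801, 0.121, 0.115 and 0.0979, and that of KRP3 without WT replicate 2 or without rh27-2 replicate 1 or 3, at 0.168, 0.0738 and 0.0844. Both were also lost under total-count scaling (0.105 for KRP1 and 0.0774 for KRP3), upper-quartile scaling (0.0612 and 0.0518), DESeq2 (0.0964 and 0.0810) and a spread shared over the 12 libraries (0.341 and 0.0924), which left 4 members lower.

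KRP6 moved the other way. Its mRNA, whose protein is known as a substrate of RHF1A in gamete formation, had 13.0, 16.1 and 16.5 CPM in rh27-2 root tips, against 10.6, 10.5 and 9.37 CPM in WT root tips. The groups did not overlap (log2 fold change 0.58, SE 0.11, edgeR adjusted p 7.15e-04).

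**Figure D1:**
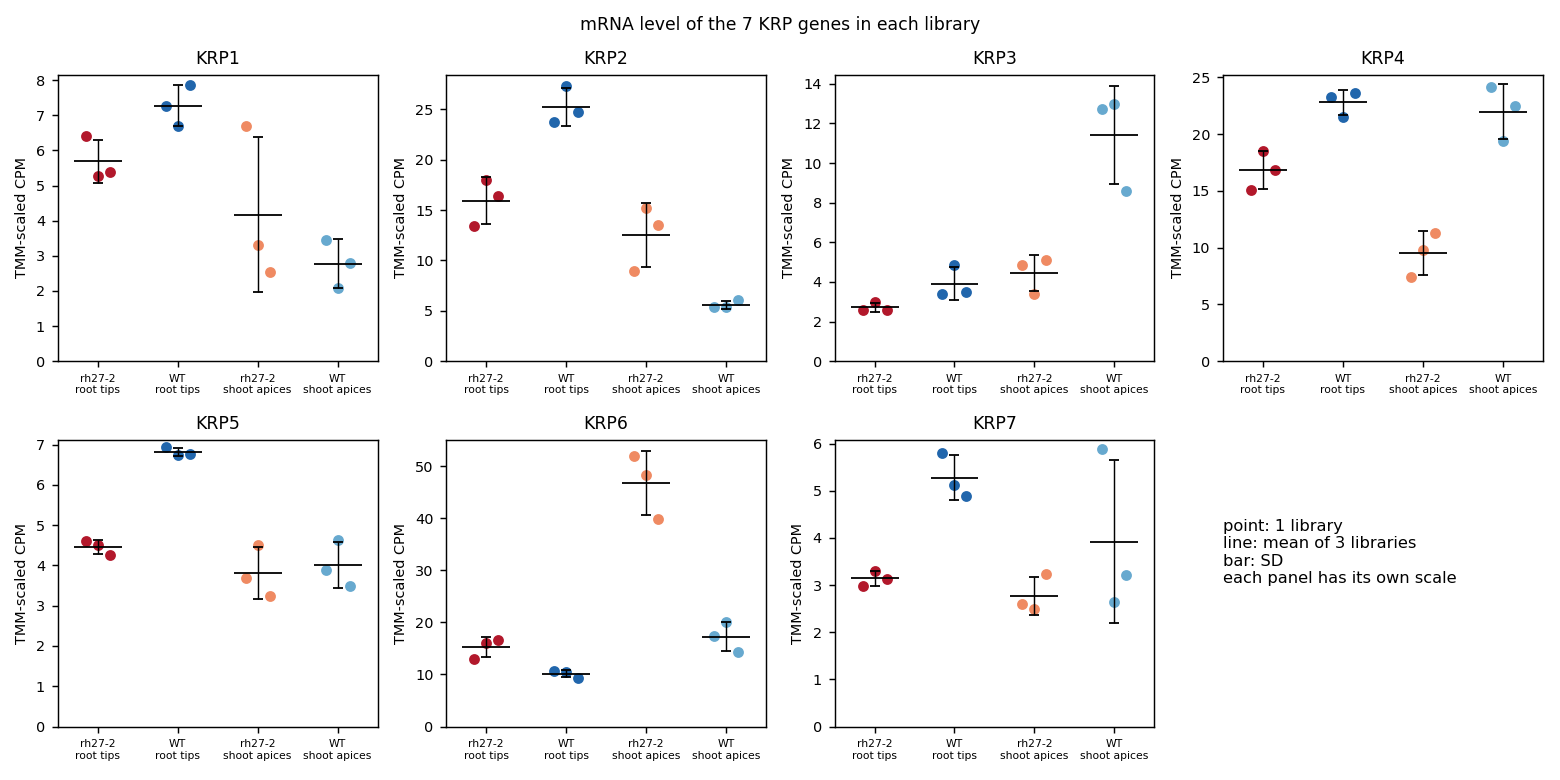
TMM-scaled CPM of each KRP gene in the 12 mRNA libraries, with 1 panel per gene and the 4 groups on the horizontal axis; points are libraries, lines are means and bars are the SD (n = 3), and each panel has its own scale. KRP6 sits at 39.9 to 51.9 CPM in rh27-2 shoot apices, above all other groups, while KRP3 and KRP4 in rh27-2 shoot apices lie below their WT shoot apex libraries.

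In shoot apices the family split. KRP6 and KRP2 rose, KRP3 and KRP4 fell, and KRP1, KRP5 and KRP7 did not pass the test. These were 2 of 7 members higher and 2 of 7 lower, beside 40.9% of 18972 tested genes called in either direction, 21.1% higher and 19.8% lower. The median log2 fold change of the members was -0.13, beside -0.025 over all genes tested.

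KRP6 had 51.9, 48.3 and 39.9 CPM in rh27-2 shoot apices, against 17.4, 20.0 and 14.4 CPM in WT shoot apices. The lowest rh27-2 library was well above the highest WT library, and the ratio was 2.60-fold (log2 fold change 1.38, SE 0.16, adjusted p 0.00145 by the edgeR quasi-likelihood F-test, Benjamini-Hochberg adjusted). KRP2 had 8.94, 15.2 and 13.5 CPM in rh27-2 shoot apices, against 5.35, 5.35 and 6.06 CPM in WT shoot apices. The groups did not overlap, although rh27-2 replicate 1 stood nearer to WT than the other two (log2 fold change 1.1, SE 0.22, edgeR adjusted p 0.00828).

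KRP3 had 4.85, 3.41 and 5.12 CPM in rh27-2 shoot apices, against 12.7, 13.0 and 8.57 CPM in WT shoot apices. No libraries overlapped, and the level was 2.67-fold lower in rh27-2 (log2 fold change -1.42, SE 0.23, edgeR adjusted p 0.00435). KRP4 had 7.44, 9.75 and 11.3 CPM in rh27-2 shoot apices, against 24.1, 19.4 and 22.4 CPM in WT shoot apices. Again every rh27-2 library lay below every WT library, with a level 2.41-fold lower (log2 fold change -1.27, SE 0.18, edgeR adjusted p 0.00249).

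The remaining 3 members could not be separated between genotypes in shoot apices. KRP1 had 6.69, 3.30 and 2.53 CPM in rh27-2, against 3.46, 2.09 and 2.78 CPM in WT, with rh27-2 replicate 1 far above the rest (log2 fold change 0.53, SE 0.40, edgeR adjusted p 0.315). Without that library the log2 fold change of KRP1 was 0.015. KRP7 had 2.59, 2.49 and 3.23 CPM in rh27-2, against 5.89, 2.65 and 3.22 CPM in WT, with WT replicate 1 standing alone (log2 fold change -0.55, SE 0.33, edgeR adjusted p 0.211), and without that library it was -0.17. KRP5 had 3.69, 4.50 and 3.23 CPM in rh27-2, against 3.89, 4.64 and 3.49 CPM in WT, groups that covered nearly the same range (log2 fold change -0.13, SE 0.21, edgeR adjusted p 0.641).

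**Figure D2:**
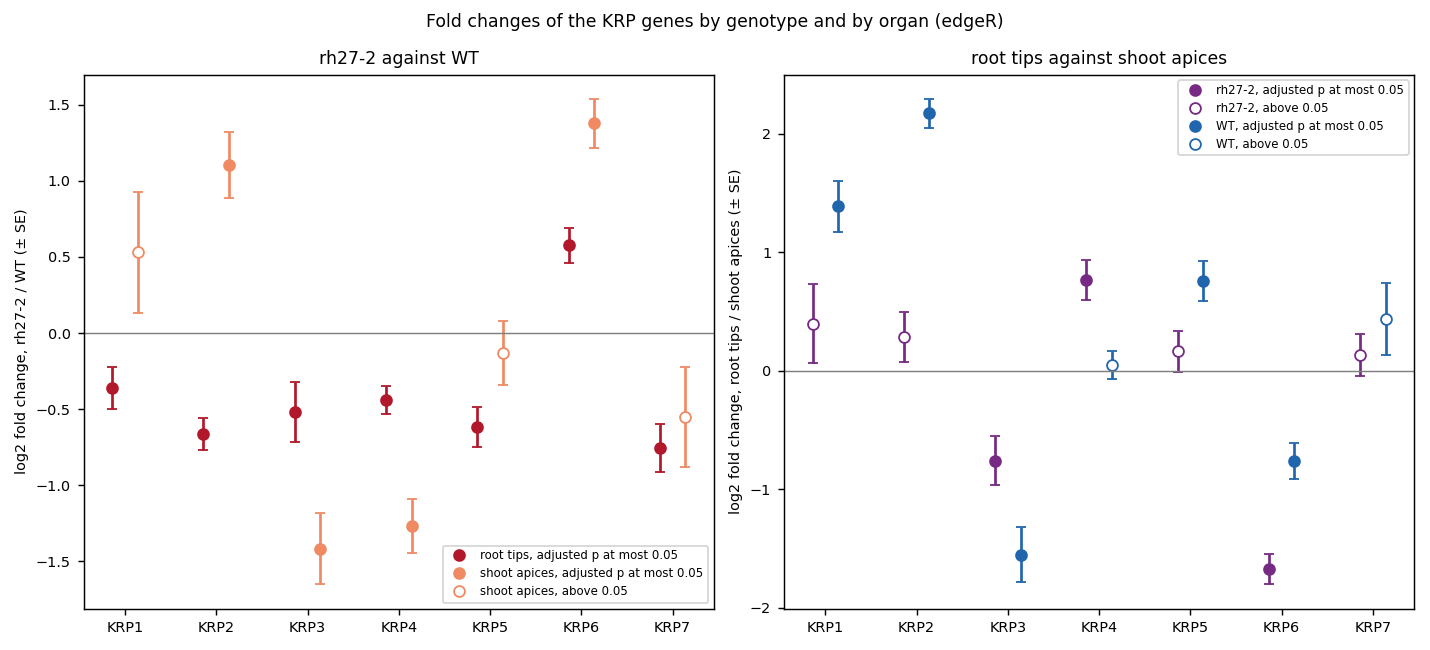
Log2 fold changes of the 7 KRP genes with their SE, for rh27-2 against WT in root tips and shoot apices (left) and for root tips against shoot apices within rh27-2 and within WT (right); filled points passed an adjusted p of 0.05 in edgeR and open points did not. KRP2 lies at -0.67 in root tips and 1.1 in shoot apices, while KRP6 is above 0 in both organs.

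Whether the genotype effect differed between organs was tested as the interaction in a fit over all 12 libraries, where a positive value means a higher rh27-2 to WT ratio in root tips than in shoot apices. It was called for 4 of the 7 members, 2 higher and 2 lower, beside 44.0% of 20798 genes in either direction, 21.4% higher and 22.6% lower. The largest difference was that of KRP2, which fell in rh27-2 root tips and rose in rh27-2 shoot apices (interaction -1.83, SE 0.25, adjusted p 2.09e-04 by the edgeR quasi-likelihood F-test, Benjamini-Hochberg adjusted). KRP6 rose in both organs and less so in root tips (-0.85, SE 0.21, edgeR adjusted p 0.00645). KRP4 fell in both organs and less so in root tips (0.77, SE 0.20, edgeR adjusted p 0.0102).

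KRP3 likewise fell less in root tips (interaction 0.85, SE 0.32, edgeR adjusted p 0.0489), but this call was lost in 9 of the 12 fits that left out 1 library, where its adjusted p was 0.0514 to 0.116. It was also lost under DESeq2 (adjusted p 0.0570), without the filter on low counts (0.0570) and with the replicate number as a block (0.0589). The interaction was not called for KRP1 (-0.94, SE 0.43, edgeR adjusted p 0.0922), KRP5 (-0.54, SE 0.22, edgeR adjusted p 0.0687) or KRP7 (-0.25, SE 0.37, edgeR adjusted p 0.605). With the replicate block KRP1 was called (-0.88, edgeR adjusted p 0.0383), and without rh27-2 shoot apex replicate 3 both KRP1 (-1.19) and KRP5 (-0.65) were called, at edgeR adjusted p 0.0303 and 0.0439. KRP5 was also called under DESeq2 (-0.62, adjusted p 0.0390) and without WT shoot apex replicate 2 (-0.66, edgeR adjusted p 0.0367).

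The members also differed between organs within a genotype. In WT, KRP1, KRP2 and KRP5 were higher in root tips than in shoot apices, KRP3 and KRP6 were lower, and KRP4 and KRP7 did not pass the test, which made 3 of 7 higher and 2 of 7 lower beside 36.3% and 37.9% of 19938 genes, and 74.2% in either direction. KRP2 averaged 25.3 ± 1.87 CPM in WT root tips and 5.59 ± 0.411 CPM in WT shoot apices (SD, n = 3 each), a 4.51-fold ratio (log2 fold change 2.17, SE 0.12, adjusted p 2.46e-06 by the edgeR quasi-likelihood F-test, Benjamini-Hochberg adjusted). KRP1 averaged 7.27 ± 0.591 CPM in WT root tips and 2.78 ± 0.687 CPM in WT shoot apices (log2 fold change 1.39, SE 0.22, edgeR adjusted p 6.23e-04). In contrast, KRP3 averaged 3.91 ± 0.830 CPM in WT root tips and 11.4 ± 2.47 CPM in WT shoot apices (log2 fold change -1.55, SE 0.23, edgeR adjusted p 4.85e-04).

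KRP5 was higher in WT root tips by a smaller step, at 6.82 ± 0.0999 CPM, against 4.01 ± 0.580 CPM in WT shoot apices (log2 fold change 0.76, SE 0.17, edgeR adjusted p 0.00400). KRP6 averaged 10.2 ± 0.690 CPM in WT root tips and 17.3 ± 2.83 CPM in WT shoot apices (log2 fold change -0.77, SE 0.15, edgeR adjusted p 0.00228). KRP4 was nearly level, at 22.8 ± 1.09 CPM in WT root tips and 22.0 ± 2.42 CPM in WT shoot apices (log2 fold change 0.050, SE 0.12, edgeR adjusted p 0.713). KRP7 averaged 5.27 ± 0.474 CPM in WT root tips and 3.92 ± 1.73 CPM in WT shoot apices (log2 fold change 0.43, SE 0.30, edgeR adjusted p 0.227), and without WT shoot apex replicate 1 the difference was called (0.84, edgeR adjusted p 0.00766).

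In rh27-2, KRP4 was higher in root tips than in shoot apices, KRP3 and KRP6 were lower, and the other 4 members did not pass the test. This made 1 of 7 higher and 2 of 7 lower, beside 36.8% of 20288 genes higher, 36.2% lower and 73.0% in either direction. KRP4 averaged 16.8 ± 1.69 CPM in rh27-2 root tips and 9.50 ± 1.94 CPM in rh27-2 shoot apices (log2 fold change 0.77, SE 0.17, adjusted p 0.00451 by the edgeR quasi-likelihood F-test, Benjamini-Hochberg adjusted). KRP6 averaged 15.2 ± 1.92 CPM in rh27-2 root tips and 46.7 ± 6.15 CPM in rh27-2 shoot apices, a 3.19-fold lower level in root tips (log2 fold change -1.67, SE 0.13, edgeR adjusted p 1.79e-05). KRP3 averaged 2.72 ± 0.238 CPM in rh27-2 root tips and 4.46 ± 0.919 CPM in rh27-2 shoot apices (log2 fold change -0.76, SE 0.20, edgeR adjusted p 0.0115).

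For KRP2 the organ difference was 0.28 (SE 0.21, edgeR adjusted p 0.255) in rh27-2, where root tips averaged 15.9 ± 2.31 CPM and shoot apices 12.5 ± 3.22 CPM. Their libraries overlapped. KRP1 (log2 fold change 0.40, edgeR adjusted p 0.313), KRP5 (0.16, 0.412) and KRP7 (0.13, 0.532) were not called either, although KRP1 was called without rh27-2 shoot apex replicate 1 (0.87, edgeR adjusted p 0.00402). This contrast moved with the scaling. Under total-count scaling the median of all genes shifted by 0.33 on the log2 scale, KRP2 (0.61), KRP5 (0.49) and KRP7 (0.46) joined KRP4 as higher, at edgeR adjusted p 0.0315, 0.0298 and 0.0497, and KRP3 (-0.43, edgeR adjusted p 0.0860) was no longer called.

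Over the 4 groups, KRP1, KRP2 and KRP5 had their highest mean in WT root tips, and the rh27-2 root tip libraries lay apart below them. KRP3 was highest in WT shoot apices, followed by rh27-2 shoot apices and WT root tips, which overlapped, and then by rh27-2 root tips. KRP4 was highest in WT root tips and WT shoot apices, which overlapped, then came rh27-2 root tips and, apart from them, rh27-2 shoot apices. KRP6 was highest in rh27-2 shoot apices, with WT shoot apices and rh27-2 root tips overlapping below and WT root tips lowest. For KRP7 the order was WT root tips, WT shoot apices, rh27-2 root tips and rh27-2 shoot apices, and each neighbouring pair overlapped. Its WT root tip libraries (4.90 to 5.81 CPM) still lay above those of rh27-2 root tips (2.99 to 3.31 CPM) and rh27-2 shoot apices (2.49 to 3.23 CPM). The coefficient of variation within a group was between 1.47%, for KRP5 in WT root tips, and 53.0%, for KRP1 in rh27-2 shoot apices. Levels are not compared between members, since no exon lengths were used here.

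The summed level of the 7 genes was 64.0 ± 5.37 CPM in rh27-2 root tips, against 81.5 ± 1.12 CPM in WT root tips, and 83.9 ± 4.46 CPM in rh27-2 shoot apices, against 66.9 ± 5.93 CPM in WT shoot apices (SD, n = 3 each). The libraries of the genotypes did not overlap in either organ, with the sum lower in rh27-2 root tips and higher in rh27-2 shoot apices. KRP6 alone took 55.5 ± 4.82% of the family's counts in rh27-2 shoot apices, against 25.8 ± 3.54% in WT shoot apices. In root tips KRP6 took 23.7 ± 1.49% in rh27-2, against 12.5 ± 0.784% in WT.

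The other shares moved around it. KRP4 took 11.4 ± 2.85% of the family's counts in rh27-2 shoot apices, against 32.9 ± 3.99% in WT shoot apices, and KRP3 took 5.35 ± 1.31% in rh27-2, against 17.0 ± 2.68% in WT. KRP2 took 15.0 ± 3.99% in rh27-2 shoot apices, against 8.42 ± 1.36% in WT shoot apices. In root tips KRP4 (26.3 ± 0.586% in rh27-2 and 28.0 ± 1.71% in WT) and KRP3 (4.26 ± 0.238% in rh27-2 and 4.80 ± 0.946% in WT) kept close shares, whose libraries overlapped, and KRP2 took 24.8 ± 1.57% in rh27-2, against 31.0 ± 1.89% in WT. These shares carry no correction for length, so they do not compare members with each other. Across groups, the share of 1 member also moves with the counts of the other members, so a close share is not a close level. KRP4, for example, was called lower in rh27-2 root tips (-0.44), where the summed level was lower too. The summed level carries no correction for length either, and shares and sum are given without a test.

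**Figure D3:**
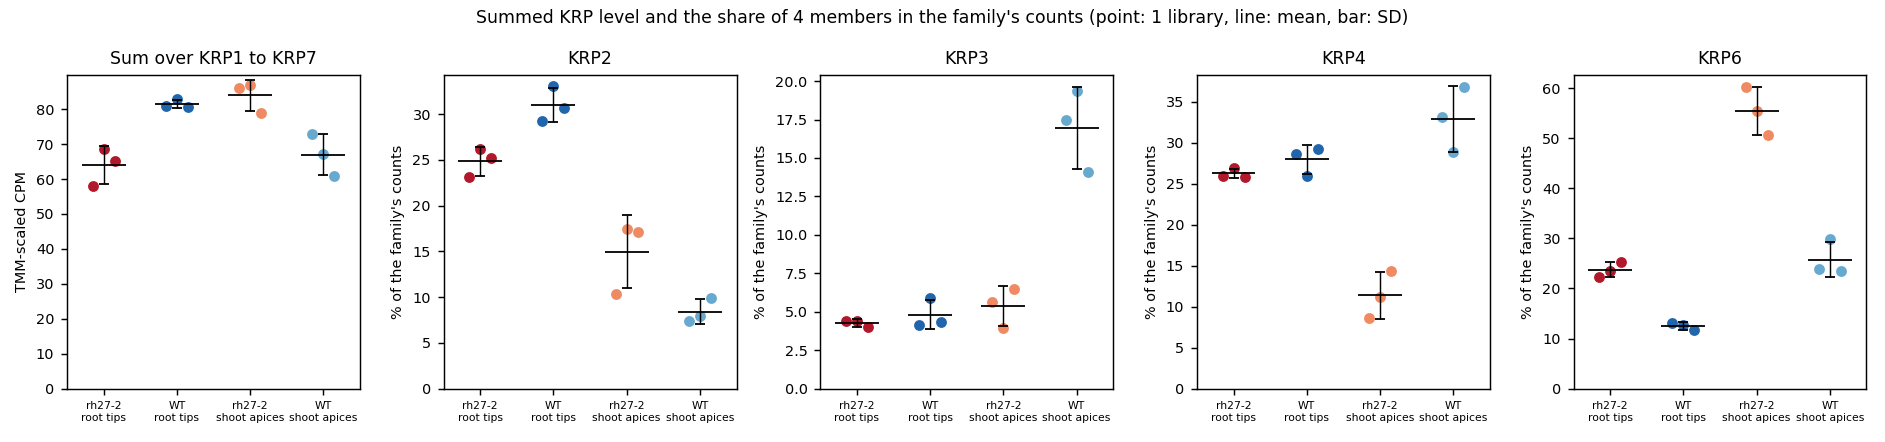
Summed TMM-scaled CPM of KRP1 to KRP7 (left) and the percentage of the family's counts taken by KRP2, KRP3, KRP4 and KRP6 in each library, by group; points are libraries, lines are means and bars are the SD (n = 3). KRP6 takes 50.7% to 60.3% in rh27-2 shoot apices and 23.6% to 29.8% in WT shoot apices.

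The direct partners of the KRPs were followed as a list of CDKA;1 and 10 D-type cyclins, which drive entry into the cell cycle. For this and the lists that follow, the counts stand beside the shares of all tested genes called in rh27-2 against WT, which were 31.3% higher and 30.9% lower in root tips (62.1% in all) and 21.1% higher and 19.8% lower in shoot apices (40.9% in all), with medians over all genes of 0.012 and -0.025. In root tips 3 of the 10 tested members were higher and 4 lower in rh27-2, close to the 62.1% of all genes, with a median log2 fold change of -0.023, and in shoot apices 1 was higher and 5 lower, beside 40.9% of all genes, with a median of -0.47. CYCD3;2, one of the CYCD3 cyclins that sustain division in growing shoot organs, had 33.4, 27.0 and 28.7 CPM in rh27-2 shoot apices, against 106, 101 and 140 CPM in WT shoot apices, and it fell in both organs (log2 fold change -2.03 in shoot apices, SE 0.17, adjusted p 6.20e-04, and -0.47 in root tips, SE 0.08, adjusted p 1.99e-04, both by the edgeR quasi-likelihood F-test, Benjamini-Hochberg adjusted). The other two, named here after their values were seen, fell in shoot apices and rose in root tips. CYCD3;1 was at -0.88 in shoot apices (edgeR adjusted p 0.00919) and 0.39 in root tips (0.00296), a root tip call lost with a spread shared over the 12 libraries. CYCD3;3 was at -0.61 in shoot apices (edgeR adjusted p 0.0237), a call lost without rh27-2 replicate 2 or 3, and 0.38 in root tips (0.00312). The interaction was called for both (1.21 and 0.94, edgeR adjusted p 7.42e-04 and 0.00319). CYCD6;1, known for formative divisions in the root, fell in shoot apices (-2.49, SE 0.32, edgeR adjusted p 0.00186) and rose in root tips (1.84, SE 0.39, edgeR adjusted p 0.00117), where its level was only 1.49 CPM in rh27-2 and 0.391 CPM in WT. CYCD1;1 fell in root tips (-1.62, SE 0.11, edgeR adjusted p 6.60e-08). CYCD4;2 fell in root tips (-0.91, SE 0.25, edgeR adjusted p 0.00691) and in shoot apices (-1.36, SE 0.25, edgeR adjusted p 0.00604), with no interaction called (0.40, edgeR adjusted p 0.333). CDKA;1 itself, named here after its values were seen, averaged 67.1 CPM in rh27-2 and 69.9 CPM in WT root tips, and 76.5 CPM in rh27-2 and 64.3 CPM in WT shoot apices. Neither difference was called (edgeR adjusted p 0.382 and 0.362).

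Among A-type cyclins, B-type CDKs and the CKS docking proteins, which act from DNA replication to mitosis, 0 of 15 tested members were higher and 4 lower in rh27-2 root tips, a smaller share than the 62.1% of all genes, with a median of -0.15. In rh27-2 shoot apices 1 of 15 was higher and 5 lower, near the 40.9% of all genes, with a median of -0.56. CYCA2;3, a cyclin known to restrain endoreduplication, fell in both organs (-0.79 in root tips, edgeR adjusted p 1.61e-06, and -1.72 in shoot apices, edgeR adjusted p 0.00100). CYCA3;2 fell in root tips (-0.69, edgeR adjusted p 3.25e-06), as did CKS1 (-0.28, edgeR adjusted p 0.0224), whose call was lost when single libraries were left out, and CYCA2;4 (-1.45, edgeR adjusted p 0.00475) and CYCA3;4 (-0.77, edgeR adjusted p 0.00631) fell in shoot apices.

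The list of CDK activating kinases, which phosphorylate CDKs, also held the cyclin CYCH;1. Of its 5 members 4 were called higher and 1 lower in root tips, beside 31.3% and 30.9% of all genes. The median was 0.34, beside 0.012 over all genes. The smallest adjusted p were those of CYCH;1 (0.57, edgeR adjusted p 7.49e-05), CDKD;1 (0.64, edgeR adjusted p 3.47e-04) and CDKD;3 (0.34, edgeR adjusted p 0.00982). In shoot apices 0 of 5 were called in either direction, beside 40.9% of all genes, and CDKD;1 (-0.41), CDKD;2 (-0.21) and CDKD;3 (0.057) had edgeR adjusted p of 0.217, 0.302 and 0.807. The interaction was called for CDKD;1 (1.00, edgeR adjusted p 0.0140) and CYCH;1 (0.52, edgeR adjusted p 0.0264). It was not called for CDKD;2, CDKD;3 and CDKF;1 (edgeR adjusted p 0.0691, 0.411 and 0.207). Downstream of the kinase, RBR1, which holds typical E2F factors in check, was listed with E2F and DP factors and with the atypical E2F genes DEL1, DEL2 and DEL3. In root tips 4 of the 9 members were higher and 2 lower, with a median of -0.0029. In shoot apices 1 was higher and 2 lower, with a median of -0.26, and both shares were near the 62.1% and 40.9% of all genes. DPA, a dimer partner of E2F, rose in both organs (0.44 in root tips, edgeR adjusted p 3.20e-04, and 0.51 in shoot apices, edgeR adjusted p 0.0263), RBR1 (0.26, edgeR adjusted p 8.03e-04) and E2FC (0.34, edgeR adjusted p 0.00458) rose in root tips, and DPB (-0.53, edgeR adjusted p 0.0101) and the atypical E2F gene DEL2 (-0.77, edgeR adjusted p 0.0298) fell in shoot apices. DEL2 was called the other way in root tips (0.75, edgeR adjusted p 0.00518), and its interaction was 1.47 (edgeR adjusted p 0.00107). The 2 members called lower in root tips, named here after their values were seen, were E2FA (-0.37, edgeR adjusted p 0.00693) and DEL1 (-0.35, edgeR adjusted p 0.0244). No alternative run is reported for E2FA and DEL1. The calls of DPA and DEL2 in shoot apices were lost when single libraries were left out, and those of RBR1, E2FC and CDKD;3 in root tips with a spread shared over the 12 libraries.

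Of 8 genes for ubiquitin ligase parts linked to KRP turnover, 1 was higher and 1 lower in rh27-2 root tips, and 1 was higher and 0 lower in rh27-2 shoot apices, smaller shares than the 62.1% and 40.9% of all genes. FBL17 had 73.6, 70.1 and 75.4 CPM in rh27-2 root tips, against 104, 104 and 108 CPM in WT root tips, with no overlap (log2 fold change -0.53, SE 0.05, adjusted p 1.42e-06 by the edgeR quasi-likelihood F-test, Benjamini-Hochberg adjusted). In shoot apices FBL17 had 48.8, 60.4 and 52.9 CPM in rh27-2, against 67.5, 64.9 and 47.6 CPM in WT, which overlapped (-0.21, edgeR adjusted p 0.299), and the difference between organs was not called (-0.38, edgeR adjusted p 0.0948). RHF1A was higher in both organs (0.21 in root tips, edgeR adjusted p 0.0264, and 0.36 in shoot apices, edgeR adjusted p 0.0473), calls that were lost when single libraries were left out. The next in order were not called, with SKP1 at 0.067 in root tips (edgeR adjusted p 0.238) and, in shoot apices, RKP at 0.36 (0.101) and SKP2B at -0.60 (0.118).

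The SIAMESE and SMR proteins are the other plant family of CDK inhibitors, and 3 of its 14 listed members were higher and 4 lower in rh27-2 root tips out of 11 tested, close to the 62.1% of all genes, with a median of 0.20. In shoot apices 3 were higher and 2 lower out of 8 tested, beside 40.9% of all genes, with a median of 0.24. SMR6 rose in both organs (1.48 in root tips, edgeR adjusted p 1.53e-04, and 1.00 in shoot apices, edgeR adjusted p 0.00908), as did SMR4 (2.70 in root tips, edgeR adjusted p 1.87e-04, and 1.68 in shoot apices, edgeR adjusted p 0.00232). SMR4 was near the floor in root tips, at 1.02 CPM in rh27-2 and 0.156 CPM in WT, where the libraries held 2, 4 and 2 counts. SMR7, named here after its values were seen, also rose in both (1.08 in root tips, edgeR adjusted p 0.00919, and 1.89 in shoot apices, edgeR adjusted p 0.00972), but its root tip call was lost without WT replicate 1. Its level was low too, at 0.873 CPM in rh27-2 and 0.223 CPM in WT shoot apices. SMR3 (-1.10, edgeR adjusted p 4.55e-06) and SMR8 (-0.93, edgeR adjusted p 5.28e-05) fell in root tips, and SMR11 fell in shoot apices (-1.54, edgeR adjusted p 0.00540). The other members called lower, also named after their values were seen, were SMR13 (-1.45, edgeR adjusted p 0.00151) and SIM (-0.80, edgeR adjusted p 0.0157) in root tips. In shoot apices SMR9 was called lower (-1.26, edgeR adjusted p 0.0404). These genes averaged at most 2.52 CPM in the groups compared, and no alternative run is reported for them. WEE1 and the 3 CCS52 genes were grouped under endocycle entry, which is a list name and not a readout of the endocycle. Of them, 0 were higher and 1 lower in root tips, beside 62.1% of all genes called, with a median of -0.21. In shoot apices 1 was higher and 1 lower, beside 40.9%, with a median of 0.044. CCS52A1, an activator of the anaphase-promoting complex, fell in root tips (-0.64, edgeR adjusted p 5.09e-06) and rose in shoot apices (0.51, edgeR adjusted p 0.0244), where CCS52B fell (-0.82, edgeR adjusted p 0.0243), both calls in shoot apices being lost when single libraries were left out. CCS52A2 was not called in root tips (-0.29, edgeR adjusted p 0.0606) or in shoot apices (-0.23, edgeR adjusted p 0.449), nor was CCS52B in root tips (-0.13, edgeR adjusted p 0.302).

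**Figure D4:**
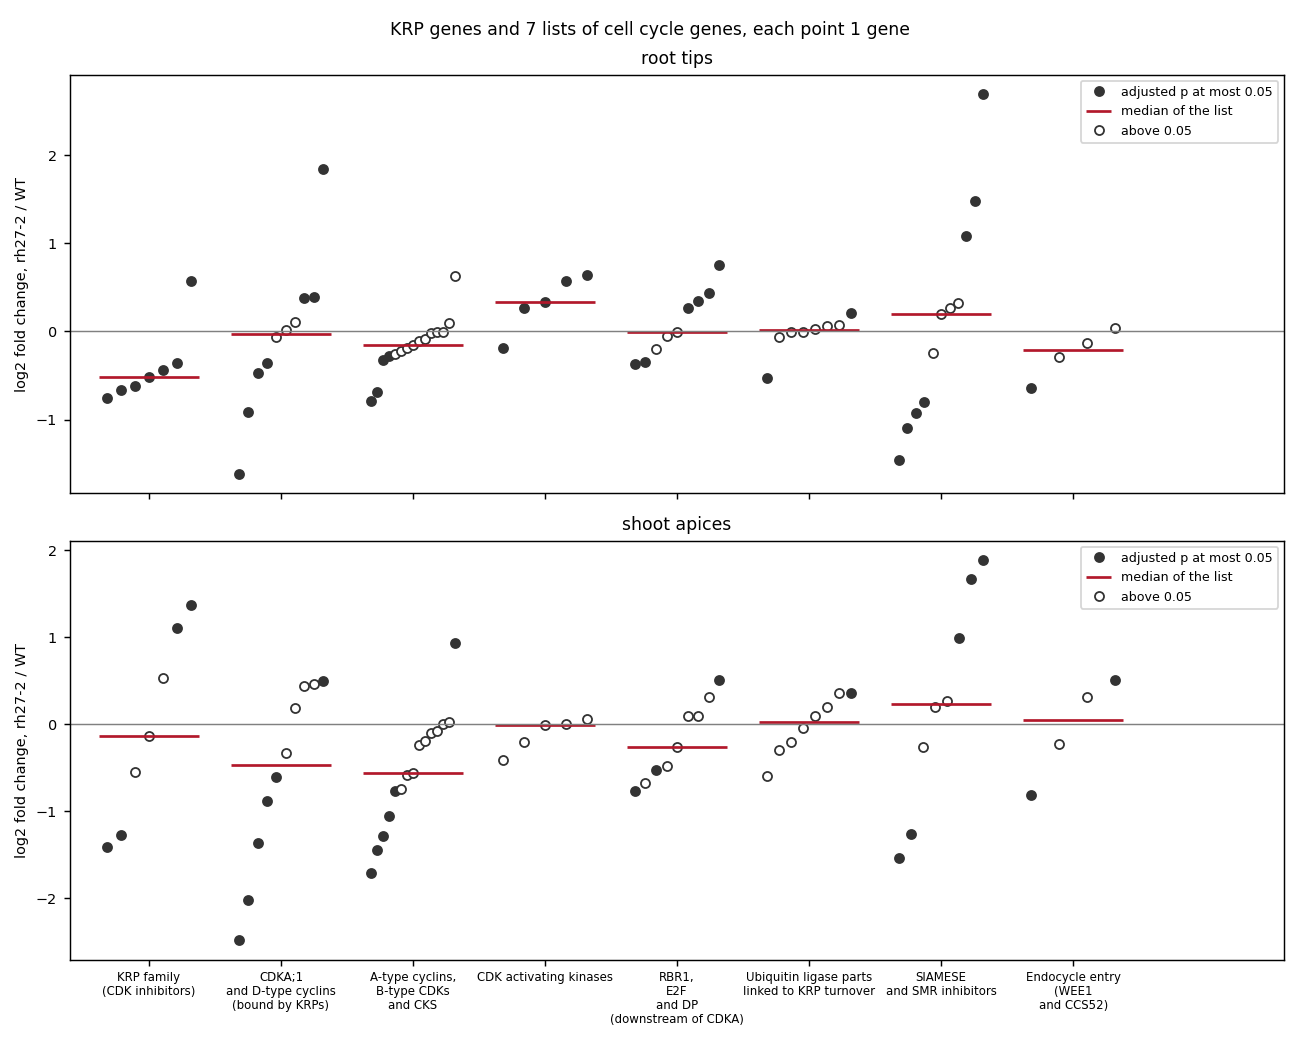
Log2 fold change of rh27-2 against WT for each tested member of the KRP family and of 7 lists of cell cycle genes, in root tips (above) and shoot apices (below); filled points passed an adjusted p of 0.05 in edgeR, open points did not, and red lines are list medians. In root tips 6 of 7 KRP genes lie below 0 with a median of -0.52, while in shoot apices they run from -1.42 to 1.38.

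Over the 12 libraries, which fall into only 4 groups, the members' log2 CPM were compared by Pearson's r as a description. KRP4 and KRP6 ran most strongly against each other (r = -0.90), followed by KRP2 and KRP3 (r = -0.80), and the closest pair were KRP4 and KRP7 (r = 0.72). Among 7814 other genes with a symbol and a mean log2 CPM of at least 1, those most like KRP2 were ACA8 (r = 0.99), MYB34 (r = 0.99) and PRF1 (r = 0.98), and those most like KRP6 were CPK1 (r = 0.98), AAP5 (r = 0.98) and CEN2 (r = 0.98). KRP4 ran closest to DUF7 (r = 0.98), TRFL1 (r = 0.96) and PDIL1-2 (r = 0.96), among 7815 genes, and KRP3 to HVA22C, PME5 and MBD10 (each r = 0.96). KRP1 ran closest to ELF4 (r = 0.96), WLIM2a (r = 0.95) and SCPL49 (r = 0.95). KRP5 ran closest to NCS1 (r = 0.95), ROC1 (r = 0.94) and FBL17 (r = 0.94), and KRP7 to NEDD1 (r = 0.90), ABAP1 (r = 0.89) and HTB11 (r = 0.88).

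In the RefSeq gene table KRP4 was the one member whose locus overlapped a neighbouring gene, CB5-B (AT2G32720), which encodes a cytochrome b5. The strand of counting is not given in the sources used here, so reads from the shared stretch cannot be told apart. CB5-B had 54.5, 53.8 and 57.1 CPM in rh27-2 root tips, against 63.2, 62.2 and 59.9 CPM in WT root tips (log2 fold change -0.17, edgeR adjusted p 0.0174), a call lost under other scalings, under DESeq2 and without single libraries. In shoot apices it had 43.1, 45.4 and 46.7 CPM in rh27-2, against 44.0, 34.0 and 33.8 CPM in WT (0.22, edgeR adjusted p 0.195), while KRP4 fell by 1.27. Of the 14 genes next to the 7 members, named here after their values were seen, 2 of 9 tested were higher and 4 lower in rh27-2 root tips, beside 62.1% of all genes called, and 1 of 8 was higher and 1 lower in rh27-2 shoot apices, beside 40.9%. AT3G50640 beside KRP2 (-0.89, edgeR adjusted p 1.58e-07) and CB5-D beside KRP3 (-0.67, edgeR adjusted p 9.43e-06) were lower in root tips, where KRP2 and KRP3 were lower too. In shoot apices CB5-D was not called (-0.26, edgeR adjusted p 0.258), while KRP3 fell by 1.42. AT3G50640 was not tested in shoot apices, where KRP2 rose. LUH beside KRP4 was at -0.12 in root tips (edgeR adjusted p 0.0352). PRT1 beside KRP5 was higher in root tips (0.17, edgeR adjusted p 0.0468) and in shoot apices (0.47, 0.0132). PREP2 beside KRP7 was higher in root tips (0.28, edgeR adjusted p 0.0123), where KRP7 fell, and lower in shoot apices (-0.76, 0.0183), where KRP7 was not called. The calls of LUH, PRT1 and PREP2 were lost when single libraries were left out, while those of AT3G50640 and CB5-D were kept under every alternative run. The genes beside KRP6, DNF and IPT8, were too low to be tested in either organ.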

How the data were processed

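The deposited files hold raw counts per locus, with no header. Per the submitters' processing notes, TopHat2, HTSeq, edgeR and Bowtie2 were used on the TAIR10 build, without roles or versions. Strand and pooling are not given in the sources used here.

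Each library was assigned to its group by its label. Genes were filtered with filterByExpr at a minimum count of 10, scaled by TMM, and tested with edgeR 4.0.16 in R 4.3.3 (glmQLFit with robust settings, glmQLFTest). P-values were adjusted over all tested genes by Benjamini-Hochberg, and an adjusted p of at most 0.05 was called. The code was tested on simulated data with the same spread for all genes and with changes larger than those of the KRP genes in root tips. The simulated spread was smaller than that between replicates in shoot apices (0.202) and larger than that in root tips (0.0735). That run therefore does not show how well changes as small as those of the KRP genes in root tips are recovered. Nor does it show how calls behave at the spread of the shoot apices. Replicates of a group differed beyond sampling noise in every pair, so all were kept.

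The members, gene lists and tests were chosen with earlier results of these data known. Named from each list were up to 3 members per organ with the smallest adjusted p, and the 3 genes most like each KRP. Gene symbols came from a RefSeq table of another release of the assembly, with 33056 loci matched, used for names and neighbours only, so no coordinates or sequences are given and the planned comparison of levels per length was not made.

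Deviations from the group means correlated between rh27-2 and WT libraries of the same number at 0.329, 0.259 and 0.117 in shoot apices. The numbers were therefore taken as a possible pairing of those samples, although the labels state no pairing. It was not clear for replicate 3, since rh27-2 replicate 3 correlated more with WT replicate 2 (0.222). In root tips (0.023, 0.0014 and -0.017) the numbers were not taken to pair samples. The reported fits hold no pairing, which entered only through the replicate block among the alternatives. Alternatives were total-count and upper-quartile scaling, DESeq2 1.42.0, no filter, a replicate block, a spread shared over the 12 libraries, and each library left out.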

Additional observations from a re-analysis of the deposited data

Results flagged for a closer look

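The genotype effect differed between organs for 4 members, by the interaction test of edgeR with Benjamini-Hochberg adjustment over all genes. The log2 fold change of rh27-2 against WT was lower in root tips than in shoot apices by -1.83 for KRP2 and by -0.85 for KRP6. It was higher in root tips by 0.77 for KRP4 and by 0.85 for KRP3, whose call was lost in 9 of the 12 fits that left out 1 library. No member was tested for a library that stands apart, since groups of 3 are too small for that.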

How the results depend on the processing

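In shoot apices the KRP genes kept their direction and their side of the threshold in all 84 values under the alternatives, with KRP6 between 1.25 and 1.48 and KRP4 between -1.41 and -1.13 when each library was left out. In root tips 69 of 84 values did, and the others were lost calls of KRP1 and KRP3. Of the organ contrasts, KRP4 in WT turned to -0.031 without WT shoot apex replicate 2, within -0.031 to 0.12 over the libraries left out. CDKD;3 in shoot apices turned to -0.028 under total-count scaling and to -0.13 without WT replicate 3, within -0.13 to 0.13 over the libraries left out. The interaction was called higher for 1 member under DESeq2, without the filter and with the replicate block, and for 1 to 2 members higher and 2 to 4 lower with each library left out. In rh27-2, root tips against shoot apices gave 4 members higher and 1 lower under total-count scaling, and 1 to 2 higher with each library left out. Of all genes in shoot apices, 6192 were higher with the spread shared over the 12 libraries, against 4007 in the reported fit, and leaving out each library gave 2531 to 3789 higher and 1960 to 3908 lower, the fewest without rh27-2 replicate 2 (without replicate 3, 2306 lower). The interaction called 6883 genes higher under total-count scaling, against 4460, which made 67.5% of its calls higher and moved the median by 0.23 on the log2 scale (0.11 under upper-quartile scaling). In rh27-2 between organs 64.5% of calls were higher under total-count scaling, against 50.4% in the reported fit, and upper-quartile scaling moved the median by 0.20. The causes were not tested. The replicate block in shoot apices called 4606 genes higher and 4312 lower and changed no KRP call. In root tips, where the numbers share no pairing, the replicate block called 5995 higher and 5942 lower. The calls for RHF1A, DPA, DEL2, CYCD3;3, CCS52A1, CCS52B, PRT1 and PREP2 in shoot apices and for RHF1A, CKS1, CYCD3;1, CDKD;3, RBR1, E2FC, SMR7, LUH, CB5-B, PRT1 and PREP2 in root tips were lost under at least 1 alternative, while RKP, CB5-B and RH27 in shoot apices and SKP1, CCS52A2 and CCS52B in root tips were called under at least 1. KRP counts were as low as 36 per library, and whether depth bears on the KRP1, KRP5 and KRP7 results in shoot apices was not tested.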
